A study of Mus musculus with 3 samples.

Results

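The 17 regions described here are the Brachyury regions that lay within 100 kb of the start of 7 genes of the Wnt pathway, out of 3160 regions in the list (0.538%). They were chosen by position alone. A region was taken when its midpoint was at most 100 kb from a gene start on the mouse build mm9, and the start positions, given to 0.01 Mb, were 103.64 Mb on chromosome 11 for Wnt3, 59.10 Mb on chromosome 11 for Wnt3a, 29.25 Mb on chromosome 10 for Rspo3, 130.81 Mb on chromosome 3 for Lef1, 70.31 Mb on chromosome 2 for Sp5, and 108.78 and 120.52 Mb on chromosome 11 for Axin2 and Notum. The genes themselves were picked with this list already known, so the counts are a description and carry no test. All 7 genes had at least 1 region, against 6 with the start positions moved 5 kb lower and 5 within 50 kb. Of windows of the same width shifted along the chromosome of each gene, 15.9% to 27.8% held any region. The counts were 5 at Sp5, 4 at Notum, 2 each at Wnt3, Axin2 and Rspo3, and 1 each at Wnt3a and Lef1.

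The list comes from chromatin immunoprecipitation with sequencing, in which DNA held by a protein is recovered with an antibody and read. The cells were mesoendoderm, the shared precursor of mesoderm and endoderm, made in serum-free culture with Activin A from the D3 embryonic stem cell line, for which the labels give (C3H/HeH x 101/H)F1 as the strain of origin. Of 3 libraries, 1 was made with each of 2 rabbit antibodies raised against residues 249 to 436 of Brachyury and 1 was a mock with pre-immune IgG. All 3 groups share the cell line and the Activin A treatment, and every library stands alone in its group, so no error between replicates can be given. The list holds positions only, for the series as a whole. Signal height, read depth and the value in either antibody or in the mock are therefore unknown here, and the identity of the cells was not checked, as no expression values were used.

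Brachyury, encoded by the gene T, is a T-box transcription factor of the primitive streak and notochord. In canonical Wnt signalling, a secreted Wnt ligand binds Frizzled and LRP receptors, the destruction complex that contains Axin is held back, and β-catenin enters the nucleus, where it joins TCF/LEF factors on DNA. R-spondins raise the amount of receptor at the cell surface. Wnt3 and Wnt3a are the ligands best known from the primitive streak and the tail bud, where T is itself a known target of the pathway and where loss of Wnt3a truncates the body axis.

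T-box and TCF/LEF recognition letters were searched in the promoters of these genes, defined as 250 bases before to 50 bases after a start in RefSeq, on build GRCm38.p6. These positions cannot be set beside those of the regions, which are on mm9. Promoters are shown for the genes with a region midpoint within 10 kb of the start position and an entry in the promoter table, which were Sp5 and Axin2. The letters searched, on both strands, were the T-box half-site TCACAC, its longer form TCACACCT, which contains it, and the TCF/LEF cores CTTTGAT and CTTTGAA, which differ in the last letter. Capitals mark matches. The Sp5 promoter lies at chr2:70474673-70474972 on the plus strand and the Axin2 promoter at chr11:108920099-108920398 on the plus strand, both GRCm38.p6 and both printed 5′ to 3′.
Sp5: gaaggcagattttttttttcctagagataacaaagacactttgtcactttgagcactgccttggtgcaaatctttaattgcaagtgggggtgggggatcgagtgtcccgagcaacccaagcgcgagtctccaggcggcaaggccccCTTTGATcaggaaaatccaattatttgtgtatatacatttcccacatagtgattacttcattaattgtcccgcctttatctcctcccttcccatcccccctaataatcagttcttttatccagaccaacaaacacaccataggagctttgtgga
Axin2: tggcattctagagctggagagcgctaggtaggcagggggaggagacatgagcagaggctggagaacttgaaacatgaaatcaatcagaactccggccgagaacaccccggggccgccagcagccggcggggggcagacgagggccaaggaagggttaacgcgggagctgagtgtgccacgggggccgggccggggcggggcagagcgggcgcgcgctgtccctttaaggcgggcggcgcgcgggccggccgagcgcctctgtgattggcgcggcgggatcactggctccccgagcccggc

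The Sp5 promoter held 1 match, the TCF/LEF core CTTTGAT, whose first base lay at -104 from the start. Of 32851 promoters of the same length in the table, 3.73% held CTTTGAT and 5.14% held CTTTGAA. The Axin2 promoter held 0 matches to the 4 sequences, so it is printed in lower case throughout. Neither promoter held TCACAC, which 14.5% of promoters held, or TCACACCT, which 1.28% held. The 2 promoters differed in base composition: GC content was 45% for Sp5 and 70.0% for Axin2, against a median of 52.7% over all promoters, and CpG dinucleotides numbered 6 and 31. The promoters of Wnt3 and Wnt3a and the 4 promoters listed for Lef1 held 0 matches as well. A missing match says only that these letters are not in this window, and the sequences of the regions themselves were not analysed here.

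**Figure D1:**
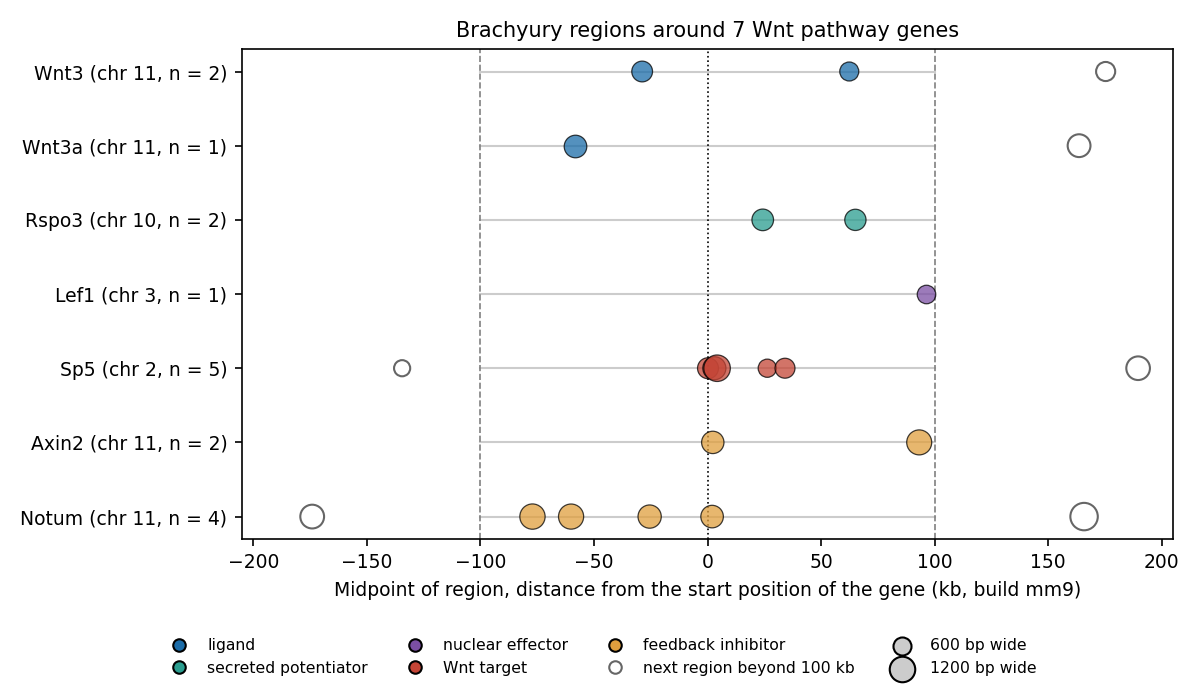
Position of each Brachyury region around 7 Wnt pathway genes, as the distance of its midpoint in kb from the start position of the gene. Filled circles are the 17 regions within 100 kb (dashed lines). Open circles are the next region beyond on either side, drawn only where it lay within 200 kb. Circle area is proportional to width and colour gives the role of the gene. Sp5, Axin2 and Notum had regions within 10 kb of the start position, and the other 4 genes did not.

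Both ligand genes had regions, but none close to the start. At Wnt3, which is transcribed towards higher coordinates, 1 region of 795 bp lay upstream at chr11:103610772-103611566, with its midpoint 28.8 kb below the start position. The other, of 666 bp, lay at chr11:103702030-103702695, with its midpoint 62.4 kb above it. A gap of 90.5 kb separated them. The neighbours of Wnt3 in RefSeq were Wnt9b, another Wnt ligand gene, on the lower side and Nsf, which encodes a factor of membrane fusion, on the higher side. Which of these genes a region serves was not tested. The next regions beyond the window were 366.1 kb below and 175.3 kb above the Wnt3 position.

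Wnt3a, transcribed towards lower coordinates, had 1 region of 940 bp at chr11:59041114-59042053. Its midpoint lay 58.4 kb below the start position, in the downstream direction. RefSeq placed 8 other protein-coding genes within 100 kb of Wnt3a, 6 of them on the lower side, where its region lay. Next to Wnt3a were Wnt9a on the higher side and Arf1, a small GTPase gene of vesicle traffic, on the lower. The nearest region on the higher side of Wnt3a, and so upstream, lay at chr11:59263109-59264067, outside the window at 163.6 kb. No region lay between these, so the upstream side of Wnt3a was empty within the window.

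Rspo3, the gene of the secreted potentiator R-spondin 3, had 2 regions, and both lay at higher coordinates, upstream of a gene that is transcribed towards lower ones. They measured 862 bp at chr10:29273849-29274710 and 833 bp at chr10:29314730-29315562, with midpoints at 24.3 and 65.1 kb. The surroundings were otherwise empty. The next regions lay 1444.0 kb below and 1197.9 kb above the Rspo3 position, so these 2 were the whole count within 1 Mb. Only 2 other protein-coding genes, Rnf146 and Gm30698, lay within 100 kb of Rspo3 in RefSeq. Both were on its lower side, and the neighbour on the higher side, where the 2 regions lay, was Cenpw.

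Lef1, which encodes a TCF/LEF partner of β-catenin, had the region farthest from the start position used, among the 7 genes. RefSeq lists 4 promoters for Lef1, and distances from its other starts were not measured. Its single region, 633 bp wide at chr3:130905944-130906576, lay 96.3 kb above the start position, in the direction of transcription and just inside the limit. It was also the only region within 1 Mb, with the next ones 1573.1 kb below and 4291.7 kb above. RefSeq placed 3 other protein-coding genes within 100 kb of Lef1, namely Hadh, Cyp2u1 and Sgms2, with 0 on the lower side. Which of these genes the region serves was not tested. With the start position moved 5 kb lower, which is within the rounding of the positions, Lef1 had 0 regions and 6 of the 7 genes were left with any.

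Sp5, a zinc-finger transcription factor gene and a well-known direct target of β-catenin, carried the most regions. Its 5 regions spanned 34.8 kb. Sp5 is transcribed towards higher coordinates. The first was 809 bp wide at chr2:70309748-70310556, with its midpoint 0.2 kb from the start position. The following one, 981 bp at chr2:70312559-70313539, lay at 3.0 kb, and the next, 1294 bp at chr2:70313581-70314874, lay at 4.2 kb. These 3 formed a dense group, and the rounding of the start position does not tell on which side of the start they lie. This one and the region before it were only 41 bp apart and may be read as 1 stretch, in which case Sp5 had 4 regions. The last 2 formed a further group on the downstream side, 611 bp wide at chr2:70335984-70336594 and 734 bp wide at chr2:70343774-70344507, with midpoints at 26.3 and 34.1 kb. Myo3b and Erich2 were the neighbours of Sp5 in RefSeq, and the regions next beyond the window lay 134.5 kb below and 189.6 kb above.

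The genes of 2 feedback inhibitors, both known Wnt targets, followed different layouts. Axin2, a scaffold of the β-catenin destruction complex, had 1 region of 921 bp near its start position, at chr11:108781830-108782750, with the midpoint 2.3 kb above the start position. A second, of 1152 bp at chr11:108872641-108873792, lay 93.2 kb above it, close to the limit of the window. Cep112 was the sole other protein-coding gene within 100 kb of Axin2 in RefSeq (1 gene), and the next regions lay 649.6 kb below and 732.6 kb above.

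Notum, the gene of a secreted enzyme that removes the lipid from Wnt ligands, had 4 regions over 80.2 kb. The nearest was 937 bp wide at chr11:120521534-120522470, with its midpoint 2.0 kb from the start position. The other 3 lay at lower coordinates, the downstream direction for this gene. They were 997 bp wide at chr11:120494032-120495028 (25.5 kb below), 1165 bp at chr11:120459359-120460523 (60.1 kb below) and 1179 bp at chr11:120442321-120443499 (77.1 kb below). The gaps between them were 26.5, 33.5 and 15.9 kb going down. Of the 7 genes, Notum had the most other protein-coding genes near it, counted on GRCm38.p6 within 100 kb of either end of the gene. The mm9 windows themselves were not counted for genes. RefSeq listed 16 other protein-coding genes within 100 kb of Notum, 10 of them on the lower side, from Myadml2 next to it to P4hb, and which gene start each of the 3 distant regions is nearest to was not tested.

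Across the 7 genes, 5 regions lay within 10 kb of a start position (3 at Sp5, 1 at Axin2 and 1 at Notum), all 5 of them within 5 kb. Another 5 lay between 10 and 50 kb and 7 beyond 50 kb, and the median distance was 28.8 kb. Since start positions were given to 0.01 Mb, each distance can be off by about 5 kb. It can therefore not be told which of the 5 nearest regions cover a start, or on which side of it they lie. At the limit of the window, the outermost regions inside were those at 96.3 kb (Lef1) and 93.2 kb (Axin2), and the nearest outside were at 134.5 kb (Sp5) and 163.6 kb (Wnt3a).

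As background, windows of the same width were shifted along the same chromosome in steps of 200 kb from each gene, between the outermost regions of the chromosome, leaving out windows that overlap those of the 7 genes. They give the usual number of regions per window and are no test, and they were not matched for genes, so stretches poor in genes are among them. On chromosome 2, 22.0% of 888 shifted windows held any region. Only 1 of them (0.113%) held as many as the 5 at Sp5, and none held more (0 windows). With neighbours under 1 kb apart merged, Sp5 held 4 regions, and 2 of 888 shifted windows (0.225%) held at least as many. The window that matched the unmerged count, centred at 152.31 Mb, then held 2.

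On chromosome 11, which has more regions per Mb between its outermost regions (2.05) than chromosomes 2 (1.51), 3 (1.05) and 10 (1.00), a region in the window was more usual. Of the windows shifted from Notum, 27.8% of 582 held any region and 5 windows (0.859%) held at least 4, of which 2 held 5. For Wnt3, 27.3% of shifted windows held any region and 8.08% held at least 2. The shares for Axin2 were 27.7% and 7.90%. For Wnt3a, with its single region, 27.3% of 583 shifted windows held at least as many. The counts at Wnt3a, Wnt3 and Axin2 were thus reached by 7.90% to 27.3% of windows on chromosome 11.

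On the sparser chromosomes, 15.9% of 622 windows shifted from Rspo3 held any region and 18 windows (2.89%) held at least 2. For Lef1, 16.1% of 769 shifted windows on chromosome 3 held at least 1 region, as Lef1 did. The 7 counts thus ranged from those at Sp5 and Notum, reached by under 1% of windows, to those at Lef1 and Wnt3a, reached by 16.1% and 27.3%.

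**Figure D2:**
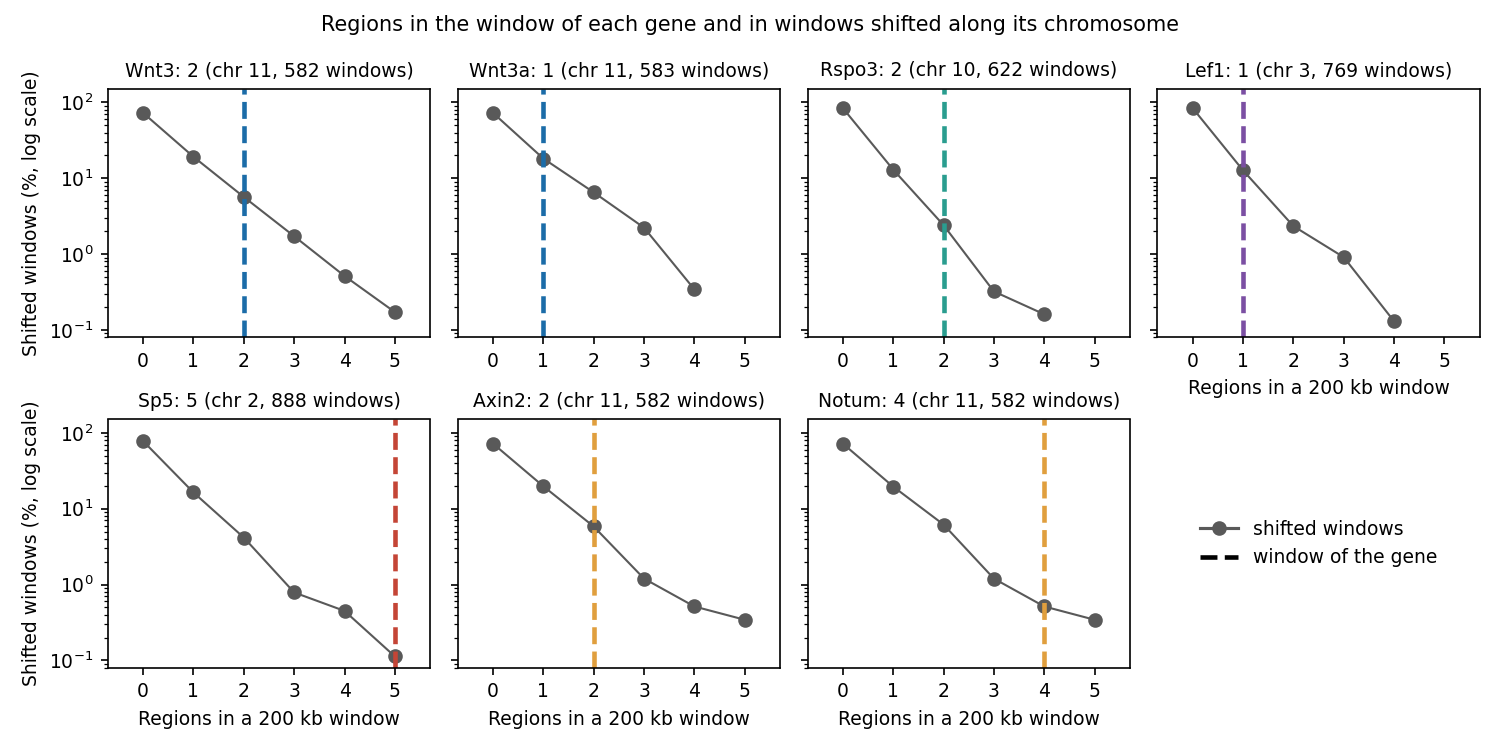
Share of shifted 200 kb windows (percent, log scale) that held each number of Brachyury regions, with the count at the gene as a dashed line; a missing point means that no window held that number. At Sp5 the line stands at 5, a count that 0.113% of windows on chromosome 2 reached, while at Wnt3a and Lef1 it stands at 1.

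Closeness to the start was set against windows of 10 kb to either side, a distance chosen after the positions had been seen. Around the centres shifted from Sp5, 3.15% of 888 held any region within 10 kb and 0% held 3, as Sp5 did. With a floor of 3 counts, 0 of 888 allows up to 0.338%, if the windows are taken as independent, which was not tested. The corresponding shares with at least 1 region were 3.22% of 590 for Axin2 and 3.90% of 589 for Notum. The other 4 genes had 0 regions within 10 kb, as did most of the windows shifted from them. At least 1 region was held by 3.23% of those windows for Wnt3a, 4.41% for Wnt3, 2.25% for Rspo3 and 2.73% for Lef1. The ligand genes and Rspo3 had their nearest at 24.3 to 58.4 kb. The shifted centres fall mostly outside gene starts, so these shares describe the chromosome, not the starts of other genes, which were not located here.

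Regions were also counted over 1 Mb to either side. Sp5 had 10 (5.0 per Mb) and Wnt3 also 10, Notum had 12 (6.0 per Mb), Wnt3a 6, Axin2 5, Rspo3 2 and Lef1 1. These counts include the regions that the rule chose, so the rates are not independent of it. With them included, the rates at Sp5, Wnt3 (5.0 per Mb), Notum, Wnt3a (3.0 per Mb) and Axin2 (2.5 per Mb) were above that of the whole chromosome. The rate at Lef1 (0.5 per Mb) was below it. No rate without the chosen regions was computed. At Rspo3 the rate of 1.00 per Mb equalled that of chromosome 10, but it came only from the 2 regions that the rule chose. Outside the 100 kb window, Rspo3 and Lef1 had 0 regions within 1 Mb. At Notum, 8 of the 12 regions lay outside the 100 kb window. At Wnt3 this was also 8 of 10, at Sp5 5 of 10, at Wnt3a 5 of 6 and at Axin2 3 of 5.

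Width was not used to choose the regions. The 17 regions measured 611 to 1294 bp with a median of 921 bp, against 850 bp over the 3160 regions of the list (quartiles 680 and 1019 bp) and 858 bp over the 798 regions of the same 4 chromosomes. Within the quartiles of the list lay 10 of the 17, with 4 above and 3 below. Members of the list as narrow as 6 bp or as wide as 4180 bp had no counterpart here.

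Widths varied between genes. All 6 regions of the inhibitor genes Axin2 and Notum were wider than the list median, at 921 to 1179 bp with a median of 1074.5 bp. Of the 5 regions of Wnt3, Wnt3a and Rspo3, 2 were wider than it, and their median was 833 bp. At Sp5 the values ran from 611 bp, wider than 15.1% of the list, to 1294 bp, wider than 92.5% of it and the widest of the 17. The Lef1 region, at 633 bp, was wider than 17.9% of the list. The 5 regions within 10 kb of a start had a median of 937 bp (809 to 1294 bp) and the 12 farther ones 847.5 bp (611 to 1179 bp), with overlapping ranges. These differences were not tested, since the regions are not replicates and several share a locus.

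**Figure D3:**
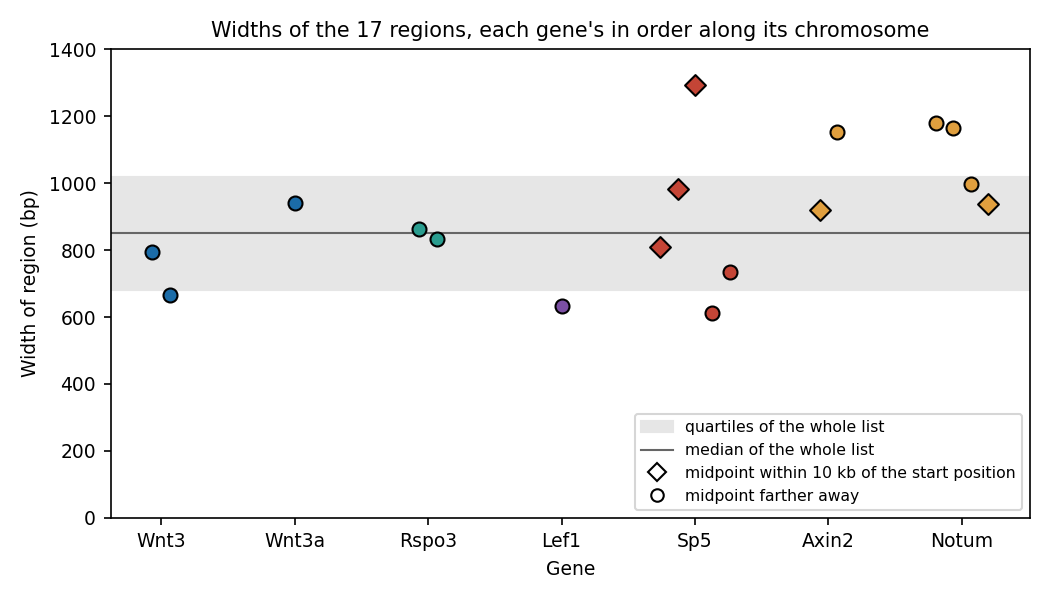
Width in bp of each of the 17 regions by gene, in order along the chromosome, with diamonds for midpoints within 10 kb of the start position and circles for the others. The line and band give the median (850 bp) and quartiles (680 and 1019 bp) of the whole list; all 6 regions at Axin2 and Notum lie above the line, and those at Wnt3 and Lef1 lie below it.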

How the data were processed

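The deposited file was 1 list of 3160 regions with 3 columns (chromosome, start, end) and no header, and its values are the authors' positions in base pairs, with no score or p-value. The submitters' processing notes name Bowtie, MACS2 and mm9, without version or role. The way the antibodies' peaks were joined, and how the mock was used, is not stated in what was used here. The RefSeq table is on GRCm38.p6, which is not the build of the list (8 regions start past its final gene on chromosome 7). RefSeq therefore served only for gene names, neighbours, strands and promoter sequences, and not to place the regions. Starts were raised by 1 base to count from 1. Genes, start positions and lists were chosen with earlier results of these data known. The start positions could not be checked against an mm9 annotation, and 38 other Wnt pathway genes were not located for the same reason. Neighbours were the adjacent protein-coding genes by midpoint. All 7 genes and all their regions are named. Promoter sequences and strands are from RefSeq, which matched 5 of 7 genes; the direction of Notum and Rspo3 is background knowledge. Counting used Python 3.11.15, numpy 2.4.6, pandas 2.3.3 and matplotlib 3.10.9, and recovered all planted counts in 20 of 20 simulated lists. Alternatives were other window widths, overlap in place of the midpoint, merging, width limits, moved positions and other shifts.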

Additional observations from a re-analysis of the deposited data

How the results depend on the processing

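No paired analysis was possible because every group is a single library and the file is 1 joint list; leaving out a replicate could not be run for the same reason. Without depth or signal, weak binding near a gene cannot be told from its absence. The counts did not change when any overlap with the window was used, with regions of at least 300 bp, or with positions 5 kb higher. Within 50 kb, 10 regions were left, with 2 at Notum, 1 each at Wnt3, Axin2 and Rspo3 and 0 at Wnt3a and Lef1. Within 200 kb there were 23 regions, with 7 at Sp5, 6 at Notum, 3 at Wnt3 and 2 at Wnt3a. Within 10 kb, a distance added after the data were seen, 5 regions at 3 genes were left, with 3 at Sp5, 1 each at Axin2 and Notum and 0 at Wnt3, Wnt3a, Rspo3 and Lef1. Among regions of at least the median width there were 10, with 2 at Sp5, 1 at Rspo3 and 0 at Wnt3 and Lef1. Positions 5 kb lower left Lef1 with 0. Merging left 16 regions with a median width of 891.5 bp. These alternatives take in less or more of the list by construction.

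With steps of 50 kb or with merging, the shares of shifted windows moved by less than 1.5 times, except that the share with as many as Sp5 was 0.113% unmerged and 0.225% (2 of 888 windows) merged. With windows of 50 kb to either side, the shares with any region were 12.2% (Sp5), 16.3% (Wnt3a), 16.6% (Wnt3), 16.2% (Axin2), 16.6% (Notum), 8.27% (Rspo3) and 9.21% (Lef1). Those with as many as the gene were 0.0562% (Sp5), 16.6% (Wnt3), 16.2% (Axin2), 2.81% (Notum) and 8.27% (Rspo3). Wnt3a and Lef1 had 0 regions at this width. With 200 kb, the shares with any were 36.1%, 43.2%, 41.1%, 42.9%, 41.5%, 27.4% and 26.8% in that order. Counts at the genes were taken at the same width (7 at Sp5, 2 at Wnt3a, 3 at Wnt3 and 6 at Notum). The share with as many was 0% for Sp5 (0 of 443 windows, which allows up to 0.677% with a floor of 3 counts). For the others it was 20.6% (Wnt3a), 8.71% (Wnt3), 21.6% (Axin2), 0.697% (Notum), 8.39% (Rspo3) and 26.8% (Lef1). Among centres within 10 Mb of the gene, the shares with any were 21.0% (Sp5), 33.0% (Wnt3a), 38.8% (Wnt3), 38.8% (Axin2), 36.5% (Notum), 13.0% (Rspo3) and 16.0% (Lef1). Those with as many were 33.0% (Wnt3a), 15.3% (Wnt3), 10.2% (Axin2), 16.0% (Lef1) and 0% (Sp5, Notum and Rspo3). The 0% shares rest on 100, 52 and 100 windows, where a count of 0 allows up to 3.0%, 5.77% and 3.0%. All such limits take the windows as independent, which was not tested. The shares over the whole chromosome (0.113%, 0.859% and 2.89%) lie below these limits. The windows within 10 Mb are part of those over the whole chromosome, and the 2 sets were not tested against each other. The cause of the local differences was not tested.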
